A study of Homo sapiens with 27 samples.

Results

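Growth factor-starved MCF10A cells that had received epidermal growth factor (EGF) for 24 h were compared with the same cells at the start of that period (T0). MCF10A is an established cell line of human mammary epithelium that does not form tumours. Members were the 3 libraries labelled EGF and the 3 labelled as the T0 control, 6 of the 27 libraries in the series, chosen by the group token in their column names. All groups shared a growth medium with 20 ng/ml EGF, horse serum, hydrocortisone, cholera toxin and insulin, the seeding of 520000 cells on collagen-1, and a later change to growth factor-free medium. T0 cells carry the treatment label Null and the time 0 h, read here as the end of an 18 h period in that medium. EGF cells received 10 ng/ml EGF in fresh growth factor-free medium for 24 h, and RNA was measured at that one time. EGF and T0 cells therefore differ in EGF, in 24 h of culture and in a change of medium, and these cannot be told apart by this contrast alone. A further pair of groups of 3 libraries each is set beside it: cells that received phosphate-buffered saline (PBS) for 24 h, which shared the time and the fresh medium, and cells that received 10 ng/ml oncostatin M (OSM, an interleukin-6-type cytokine) for 24 h. The labels do not say whether replicates came from separate cultures, so the p-values measure the spread between these libraries, which may be technical, in 1 cell line.

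EGF binds the receptor tyrosine kinase EGFR, which signals through RAS and the kinase ERK to immediate early transcription factors, and ERK output in turn induces phosphatases and Sprouty proteins that damp the pathway. The growth medium of these MCF10A cells contained EGF. Cyclin D, induced downstream of ERK, leads to phosphorylation of the retinoblastoma proteins and release of E2F factors, which drive genes of DNA replication. Mitotic genes follow later in the cycle and are repressed in resting cells by the DREAM complex at CHR promoter elements. In parallel, PI3K and AKT keep FOXO factors out of the nucleus, and FOXO target genes rise when growth factors are withdrawn.

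Total estimated counts were 39.5 to 48.4 M (mega) in T0, 38.1 to 46.9 M in EGF, 35.8 to 43.1 M in PBS and 35.2 to 46.6 M in OSM. Levels below are counts per 1 M counts (CPM), so they are relative to the other transcripts of a library, and RNA per cell was not measured. Counts of replicates differed beyond sampling noise: chi-square divided by its degrees of freedom was 11.5 to 20.1 between T0 libraries and 8.23 to 13.1 between EGF libraries. Mitochondrial transcripts took 2.77% to 2.79% of the counts in T0, 2.85% to 3.06% in PBS and 1.59% to 2.10% in EGF, and the part of this in the results was not tested. The epithelial identity given by the labels matched its markers: of 22 epithelial markers 21 passed the filter on low counts, with summed levels of 26005 to 26933 CPM in the T0 libraries and 16126 to 18107 CPM in the EGF libraries. Summed levels of 7 tested fibroblast markers were 116 to 124 CPM in T0 and 56.2 to 68.3 CPM in EGF, with 2 members higher and 3 lower, those of 6 endothelial markers 18.7 to 20.2 CPM and 2.1 to 2.32 CPM, and those of the 2 tested leukocyte markers, CD14 and CD68, 45.1 to 54.9 CPM and 26.2 to 29.8 CPM. COL3A1 and CD3D had 0 counts in both groups, which allows up to 0.023 CPM in T0 and 0.0239 CPM in EGF (3 counts over the unscaled total of the group, counting error only). The leukocyte marker PTPRC had 15 counts over T0 and 6 over EGF. The part of these markers in the results below was not tested.

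A total of 11050 of 16611 tested rows, 66.5%, differed between EGF and T0 by edgeR's quasi-likelihood test at a Benjamini-Hochberg adjusted p under 0.05. Of these, 5246 (31.6% of all tested) were higher and 5804 (34.9%) lower with EGF, and the median log2 fold change over all rows was -0.06. A total of 1302 rows (7.84%) were called and at least 2-fold higher, and 2141 (12.9%) called and at least 2-fold lower. In 11599 rows (69.8%) the 3 EGF libraries did not overlap the 3 T0 libraries. Against PBS, 11762 rows were called (70.8%, with 33.8% higher and 37.0% lower), and PBS itself differed from T0 in 5464 rows (32.9%, with 15.1% higher and 17.8% lower). The shares over all rows are to be set beside the list counts for the same comparison. The contrast of EGF with T0 is the sum of EGF with PBS and PBS with T0, and these comparisons share libraries. In RNA from whole cultures, a change in the share of cells of a state and a change in RNA per cell cannot be told apart.

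**Figure D1:**
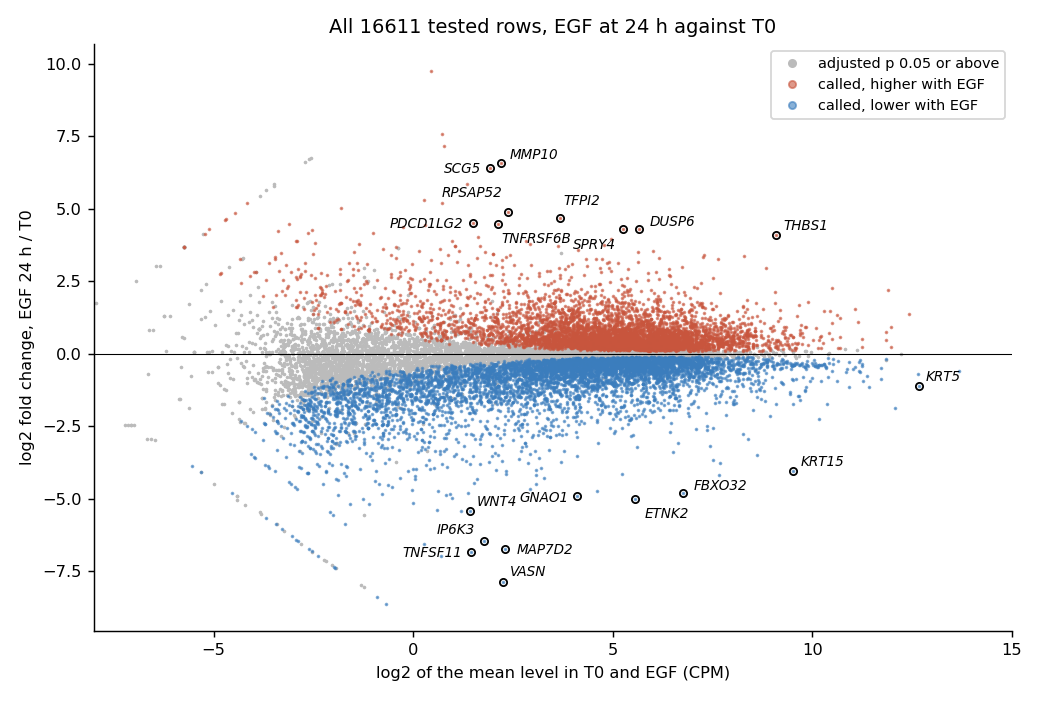
Each point is 1 of the 16611 tested rows: the x axis is log2 of its mean level in T0 and EGF (CPM), and the y axis its log2 fold change, EGF at 24 h over T0. Red rows were called higher and blue rows called lower, and the circled genes include SPRY4 and DUSP6 at more than 4 log2 units above 0 and FBXO32 and ETNK2 at more than 4 below.

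Among genes with at least 5 CPM in either group and no overlap between libraries, the 8 with the highest fold change included a secreted protease, inhibitors of proteolysis and of ERK signalling, and an immune checkpoint ligand. The 8 with the lowest included a cytokine of the TNF family, a WNT ligand, a microtubule-associated protein, a G protein subunit and a ubiquitin ligase component. MMP10 (chr11:102770502-102780628, minus strand), the matrix metalloproteinase stromelysin-2, was at 0.0852, 0.132 and 0.0466 CPM in the T0 libraries and 11, 8.65 and 7.5 CPM in the EGF libraries (log2 fold change 6.59, SE 0.54, adjusted p = 8.4e-10). All 3 EGF libraries lay far above the T0 libraries, which held 13 counts in all, and above PBS, at 0.125, 0.0215 and 0.0489 CPM. TFPI2 (chr7:93885396-93890753, minus strand), a Kunitz-type inhibitor of serine proteases, rose from 0.961 ± 0.312 to 24.6 ± 1.92 CPM (SD, n = 3, log2 fold change 4.69, SE 0.25), and PBS was lower than T0 at 0.192 ± 0.111 CPM. PDCD1LG2 (chr9:5510531-5571282, plus strand), which encodes the PD-1 ligand PD-L2, rose from 0.234, 0.17 and 0.303 CPM to 5.75, 5.43 and 4.91 CPM. SCG5, a secretory granule chaperone, had a pair of rows with log2 fold changes of 6.43 and 5.85. RPSAP52, a pseudogene that overlaps the start of HMGA2 on the other strand, rose by 4.91 on the log2 scale (SE 0.29) and HMGA2 by 3.51 (SE 0.17), and since the strand setting of the counting is not given in the sources used here, reads from the pair may not be told apart. TNFRSF6B, a decoy receptor for FAS ligand that overlaps a readthrough transcript, was at 0.234, 0.113 and 0.816 CPM in T0 and 10.5, 7.47 and 7.11 CPM in EGF, and its log2 fold change of 4.50 was 5.59 without T0 replicate 3.

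TNFSF11 (chr13:42562736-42608013, plus strand), the cytokine RANKL, which acts between cells of the mammary epithelium, was at 5.79, 6.03 and 4.36 CPM in T0 and 0.0446, 0.04 and 0.0489 CPM in EGF. Its log2 fold change was -6.83 (SE 0.53, adjusted p = 7.6e-11), with PBS in between at 1.7, 1.36 and 1.54 CPM. WNT4 (chr1:22117313-22143969, minus strand), a WNT ligand of the mammary epithelium, fell from 5.41, 5.69 and 4.55 CPM to 0.156, 0.0999 and 0.0978 CPM, whereas PBS, at 4.84, 6.39 and 6.92 CPM, overlapped T0. MAP7D2 fell by 6.74, IP6K3, an inositol hexakisphosphate kinase, by 6.46, and GNAO1, a G protein alpha subunit, by 4.92 on the log2 scale. ETNK2 (chr1:204131062-204152044, minus strand), an ethanolamine kinase of phospholipid synthesis, fell from 74.4, 99.3 and 101 CPM to 2.5, 3.2 and 2.86 CPM, and PBS was above T0 at 126, 150 and 166 CPM. The lowest fold change, -7.87 for 1 of the rows named VASN, is uncertain. The other row of this symbol was not called (log2 fold change 0.46, adjusted p = 0.75), the T0 libraries split their counts between the rows, and summing rows by symbol gave -1.29. The value was also -11.55 without EGF replicate 3 and -7.25 without EGF replicate 2.

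The ERK feedback list held feedback inhibitors and ETS factors downstream of ERK and also other genes, HMGA2 among them. Of its 21 tested members, 20 were higher and 1 lower with EGF than at T0, beside 31.6% and 34.9% of all rows. At least 2-fold higher were 18 members, beside 7.84% of all rows. Their median log2 fold change was 1.93, beside -0.06 over all rows, and the median of PBS against T0 was 0.13, with 6 members higher and 4 lower. DUSP6 (chr12:89347235-89352501, minus strand), the cytoplasmic phosphatase that inactivates ERK, was at 2.83, 5.03 and 6.9 CPM in T0, 5.82, 5.1 and 5.26 CPM in PBS and 102, 89.2 and 96.6 CPM in EGF. The EGF libraries lay more than 10-fold above every T0 and PBS library, and the log2 fold change over T0 was 4.29 (SE 0.20, adjusted p = 2.1e-13). SPRY4 (chr5:142310427-142326455, minus strand), a Sprouty inhibitor of receptor tyrosine kinase signalling, went from 2.88, 3.56 and 4.69 CPM to 74.7, 67.9 and 75.2 CPM (log2 fold change 4.30, SE 0.21). HMGA2, an architectural chromatin protein, was at 7.48, 9.19 and 7.23 CPM in T0 and 104, 82.3 and 87.3 CPM in EGF. The ETS factors ETV4 and ETV5 rose with log2 fold changes of 3.04 and 2.82, the pleckstrin-domain protein gene PHLDA1 with 3.32, and the nuclear phosphatase gene DUSP4 with 2.68. The member that was lower, the immediate early phosphatase gene DUSP1, was at 247, 263 and 257 CPM in T0 and 209, 221 and 227 CPM in EGF (log2 fold change -0.22, SE 0.07).

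Immediate early and AP-1 factors were mixed: of 20 tested, 11 were higher, 5 lower and 4 not called, with a median log2 fold change of 0.50. Over all rows 31.6% were higher and 34.9% lower. PBS against T0 had a similar median of 0.45 with 10 higher and 0 lower, and 9 members were higher and 9 lower in EGF than in PBS. FOSL1 (chr11:65892049-65900573, minus strand), the AP-1 subunit FRA1, was at 8.52, 10.1 and 11.3 CPM in T0, 9.99, 8.7 and 7.88 CPM in PBS and 91.1, 85.8 and 91.4 CPM in EGF. Its log2 fold change over T0 was 3.16 (SE 0.13, adjusted p = 1.1e-14). FOSL2, which encodes the related subunit FRA2, moved the other way, from 421, 407 and 391 CPM to 120, 130 and 114 CPM (log2 fold change -1.74, SE 0.08), while PBS was higher than T0 at 542, 566 and 555 CPM. EGR1 rose from 27.8, 38.8 and 51.3 CPM to 112, 106 and 106 CPM, whereas EGR3 fell by 1.15. EGR2 rose by 2.21 (SE 0.51) from few counts, 14 over T0 and 64 over EGF, and stayed under 1 CPM. FOS was higher than T0 in EGF (0.78, SE 0.11) and higher still in PBS, where it stood at 26.7, 29.5 and 27.4 CPM against 18.3, 16.6 and 16.1 CPM in EGF. JUN rose against T0 by 0.76 with EGF and by 0.63 with PBS, and EGF and PBS were not separated by the test (0.13, SE 0.13, adjusted p = 0.38). MYC changed little beside these, from 218, 284 and 309 CPM to 331, 351 and 354 CPM (log2 fold change 0.35, SE 0.09, adjusted p = 0.0012).

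**Figure D2:**
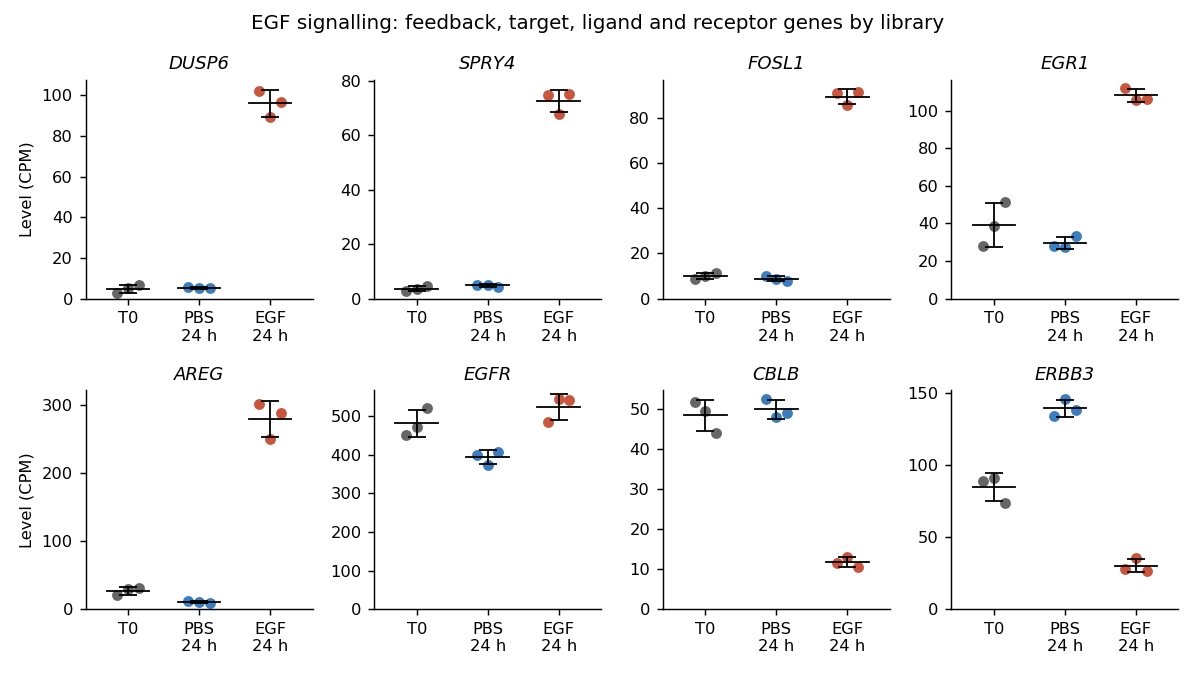
Level (CPM) of 8 genes of EGF signalling in each library of T0, PBS at 24 h and EGF at 24 h, with the mean and SD of 3 libraries as bars. DUSP6, SPRY4, FOSL1, EGR1 and AREG are higher in every EGF library than in every T0 and PBS library, CBLB and ERBB3 are lower, and EGFR overlaps between EGF and T0.

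Of 10 tested EGF family ligands, 5 were higher with EGF than at T0, 2 were lower and 3 were not called. Over all rows 31.6% were higher and 34.9% lower, so the number called was near the share of 66.5% over all rows. AREG (chr4:74445136-74455005, plus strand), which encodes the EGFR ligand amphiregulin, was at 20.8, 30.6 and 31.1 CPM in T0, 12, 10.9 and 9.37 CPM in PBS and 302, 251 and 288 CPM in EGF. Its log2 fold change over T0 was 3.35 (SE 0.24, adjusted p = 1.5e-10), and PBS was lower than T0 (-1.35, SE 0.25). EREG (epiregulin), NRG1 (neuregulin-1, a ligand of ERBB3), TGFA (transforming growth factor alpha) and HBEGF rose with log2 fold changes of 2.15, 2.70, 1.18 and 0.60. EPGN (epigen) fell by 0.54 and NRG4 by 1.54, the latter from 5.81, 5.95 and 5.92 CPM to 1.69, 2.24 and 2.15 CPM. Transcripts of EGF itself and of betacellulin (BTC) were not called, with log2 fold changes of -0.14 and 0.26.

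Of the receptors, ERBB2 and ERBB3 fell and EGFR was not called. EGFR (chr7:55019017-55211628, plus strand) was at 452, 470 and 519 CPM in T0 and 483, 542 and 542 CPM in EGF, so the groups overlapped, and its log2 fold change of 0.12 (SE 0.05) was not called (adjusted p = 0.055). It was higher than in PBS, at 398, 373 and 408 CPM (0.41, SE 0.05, adjusted p = 3.8e-07). ERBB3, the kinase-impaired co-receptor that couples to PI3K, fell from 89.2, 91.3 and 73.7 CPM to 28.2, 35.6 and 27 CPM, and PBS was above T0 at 134, 146 and 138 CPM. ERBB2 fell by 0.55 on the log2 scale (SE 0.06). ERBB4 was under the filter, with 8 counts over T0 and 0 over EGF. Among brakes on the receptors, the ubiquitin ligase gene CBLB fell from 51.7, 49.3 and 44 CPM to 11.5, 13.1 and 10.6 CPM (-2.04, SE 0.12, adjusted p = 5.8e-13) while its relative CBL rose by 0.21. ERRFI1, the EGFR inhibitor MIG6, fell by 0.86 (SE 0.14), and the phosphatase gene PTPN1 rose by 0.83. In all, 4 of 12 tested receptors and brakes were higher and 5 lower, counts near the shares over all rows (31.6% higher and 34.9% lower).

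In G1, 14 of 18 tested cyclins, CDKs, CDK partners and CDK inhibitors were higher with EGF, beside 31.6% of all rows. Of the others 3 were lower and 1 was not called, and the 3 that fell were the CIP/KIP inhibitors. CCND1 (chr11:69641156-69654474, plus strand), cyclin D1, was at 42.1, 43.6 and 57.1 CPM in T0, 41.8, 43.3 and 40.6 CPM in PBS and 217, 225 and 241 CPM in EGF. T0 and PBS overlapped, and every EGF library was above both, with a log2 fold change over T0 of 2.26 (SE 0.13, adjusted p = 4.2e-12). CCNE2, a cyclin E that activates CDK2, rose from 2.39, 2.32 and 3.15 CPM to 17.6, 18.5 and 20.9 CPM, and CDC25A, the phosphatase that activates CDK2, from 8.41, 8.68 and 10.8 CPM to 47.4, 50.1 and 57.5 CPM. CDK2 rose by 1.66, CDK6 by 1.11 and CDK4 by 0.61 on the log2 scale. Of the inhibitors, CDKN1A (p21) fell from 440, 453 and 385 CPM to 236, 256 and 200 CPM, CDKN1B (p27) from 35.3, 29.9 and 26.3 CPM to 23.3, 23.1 and 24.6 CPM, and CDKN1C (p57) from 25, 67.8 and 77.4 CPM to 7.69, 8.57 and 9.07 CPM. The log2 fold changes were -0.88, -0.37 and -2.75, and T0 and EGF did not overlap for any of the 3, as in 69.8% of all rows. CDKN1C varied most within T0, where replicate 1 was low. Another row of CDKN1C had a log2 fold change of -2.87. CDKN2A and CDKN2B had 0 counts in both groups.

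E2F and pocket protein genes also rose as a group: 16 of 19 tested were higher, beside 31.6% of all rows, 2 lower and 1 not called, with a median log2 fold change of 0.85. E2F1 (chr20:33675477-33686385, minus strand), an activator of replication genes, was at 4.49, 3.86 and 4.59 CPM in T0, 2.72, 2.52 and 3.67 CPM in PBS and 20.5, 17.1 and 17.5 CPM in EGF (log2 fold change over T0 2.09, SE 0.18, adjusted p = 2.7e-10). The repressor gene E2F7 rose by 2.42 (SE 0.17). MYBL2 and FOXM1, factors that switch mitotic genes on, rose by 2.29 (SE 0.19) and 1.33 (SE 0.17) against T0. Both were below T0 in PBS, where FOXM1 stood at 6.97, 6.48 and 7.92 CPM against 62.4, 50.5 and 50 CPM in T0 and 130, 133 and 148 CPM in EGF. RBL2, the pocket protein p130 of resting cells, fell by 0.64 (SE 0.06), while RBL1 (p107) rose by 1.45 and RB1 by 0.63.

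DNA replication genes rose without exception among those tested: 52 of 52 were higher with EGF than at T0, beside 31.6% of all rows, and 42 were at least 2-fold higher. Their median log2 fold change was 1.51, the range was 0.25 (RPA3) to 2.95 (MCM10), and in all 52 the EGF libraries did not overlap T0, beside 69.8% of all rows. In PBS 43 of the 52 were lower than T0 and 0 higher, with a median of -0.99, so the median against PBS was larger, at 2.42. Summed over the list, levels were 1331, 1211 and 1345 CPM in the T0 libraries, 839, 847 and 862 CPM in PBS and 3363, 3361 and 3683 CPM in EGF. MCM10, which activates the replicative helicase, was at 6.94, 5.2 and 8.58 CPM in T0, 1.07, 0.926 and 0.856 CPM in PBS and 51.2, 51.5 and 56.3 CPM in EGF (log2 fold change over T0 2.95, SE 0.24, adjusted p = 9e-10). CLSPN, the checkpoint adaptor claspin, rose by 2.85 (SE 0.21), and UHRF1, which brings DNA methyltransferase to replicated DNA, by 2.71 (SE 0.17). MCM6, a subunit of the helicase itself, went from 35.8, 33.6 and 42.1 CPM to 125, 140 and 151 CPM.

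Mitotic genes rose with a similar median: 59 of 60 tested were higher with EGF than at T0, beside 31.6% of all rows, 0 were lower, and 54 were at least 2-fold higher. Their median log2 fold change was 1.52. The member not called, CDC25B, a phosphatase that activates CDK1, stood at 151, 143 and 152 CPM in T0 and 157, 161 and 176 CPM in EGF (0.15, SE 0.12, adjusted p = 0.27). In PBS all 60 were lower than T0, with a median of -2.45, and against PBS 60 of 60 were higher in EGF, with a median of 3.91. T0 thus lay between PBS and EGF: summed levels were 776, 693 and 794 CPM in the PBS libraries, 2866, 2250 and 2421 CPM in T0 and 6135, 6289 and 6975 CPM in EGF. The proliferation marker gene MKI67 was at 149, 129 and 149 CPM in T0, 23.6, 13.6 and 27.4 CPM in PBS and 479, 521 and 557 CPM in EGF (log2 fold change over T0 1.87, SE 0.22, adjusted p = 2.7e-07). KIF23, a kinesin of cytokinesis, rose from 28.5, 21.3 and 24.6 CPM to 103, 102 and 112 CPM. CENPI, a centromere protein, and AURKB, the kinase of the chromosomal passenger complex, rose by 2.07 and 2.04. CCNB2, a B-type cyclin that partners CDK1, was at 36.7, 28.9 and 28.8 CPM in T0 and 60.2, 62.5 and 68.9 CPM in EGF.

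**Figure D3:**
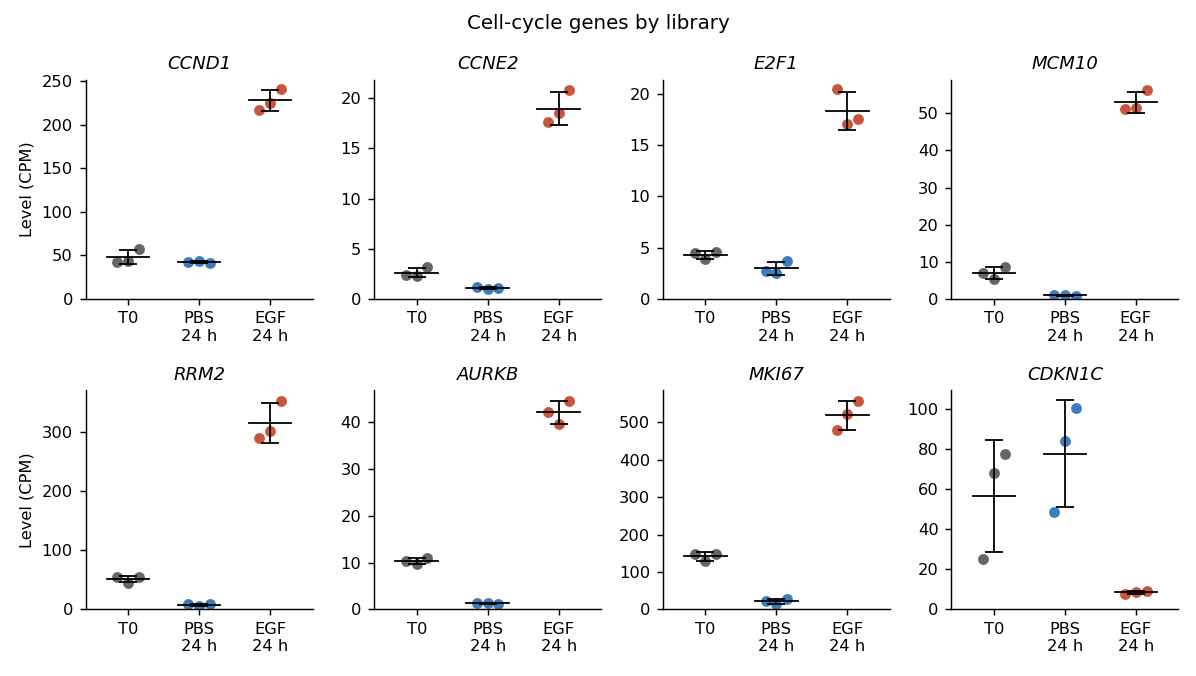
Level (CPM) of 8 cell-cycle genes in each library of T0, PBS at 24 h and EGF at 24 h, with the mean and SD of 3 libraries as bars. In CCND1, T0 and PBS overlap, while in MCM10, RRM2, AURKB and MKI67 the T0 libraries lie between PBS and EGF, and CDKN1C is lower in every EGF library.

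Promoters of MCM6, UHRF1, E2F1, KIF23, CDC20 and CCNB2 are shown as examples, with E2F1 taken from the E2F list. All of them hold the letters marked, so they do not stand for their lists, whose shares are given after the sequences. A link between promoter letters and the levels in T0, PBS or EGF was not tested. Each promoter is the 250 bases before the start that RefSeq lists for the gene, on GRCh38.p14, 5′ to 3′ on the gene's strand, with matches in capitals. For MCM6, UHRF1 and E2F1 the capitals mark E2F letters, TTCCCGC or TTGGCGC, and for KIF23, CDC20 and CCNB2 they mark the CHR letters TTTGAA and the CCAAT box, each on either strand. The windows are chr2:135876444-135876693 (MCM6, minus strand), chr19:4909251-4909500 (UHRF1, plus), chr20:33686386-33686635 (E2F1, minus), chr15:69414099-69414348 (KIF23, plus), chr1:43358731-43358980 (CDC20, plus) and chr15:59104896-59105145 (CCNB2, plus).
MCM6: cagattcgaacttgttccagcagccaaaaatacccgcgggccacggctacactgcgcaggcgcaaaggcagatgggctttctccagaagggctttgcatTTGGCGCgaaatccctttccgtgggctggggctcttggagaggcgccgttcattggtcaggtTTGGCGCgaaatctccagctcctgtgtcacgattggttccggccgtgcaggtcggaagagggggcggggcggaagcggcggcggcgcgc
UHRF1: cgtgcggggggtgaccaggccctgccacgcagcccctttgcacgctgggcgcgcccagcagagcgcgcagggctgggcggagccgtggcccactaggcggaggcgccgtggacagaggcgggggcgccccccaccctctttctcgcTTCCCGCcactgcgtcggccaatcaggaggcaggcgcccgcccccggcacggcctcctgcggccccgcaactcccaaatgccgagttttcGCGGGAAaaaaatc
E2F1: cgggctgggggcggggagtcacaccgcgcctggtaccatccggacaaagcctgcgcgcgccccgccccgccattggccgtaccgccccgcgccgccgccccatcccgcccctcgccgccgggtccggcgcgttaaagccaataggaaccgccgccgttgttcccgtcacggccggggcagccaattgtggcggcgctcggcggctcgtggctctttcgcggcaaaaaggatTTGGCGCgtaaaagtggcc
KIF23: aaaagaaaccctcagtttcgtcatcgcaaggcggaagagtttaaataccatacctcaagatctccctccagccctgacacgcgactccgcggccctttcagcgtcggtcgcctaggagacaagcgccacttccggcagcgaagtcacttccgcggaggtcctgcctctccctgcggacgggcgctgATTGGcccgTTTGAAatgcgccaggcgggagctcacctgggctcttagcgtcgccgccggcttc
CDC20: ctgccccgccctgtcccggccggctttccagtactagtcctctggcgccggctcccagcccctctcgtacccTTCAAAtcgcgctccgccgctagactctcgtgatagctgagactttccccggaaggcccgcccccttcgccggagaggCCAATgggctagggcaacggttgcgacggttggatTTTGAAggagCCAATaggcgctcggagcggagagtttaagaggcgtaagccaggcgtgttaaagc
CCNB2: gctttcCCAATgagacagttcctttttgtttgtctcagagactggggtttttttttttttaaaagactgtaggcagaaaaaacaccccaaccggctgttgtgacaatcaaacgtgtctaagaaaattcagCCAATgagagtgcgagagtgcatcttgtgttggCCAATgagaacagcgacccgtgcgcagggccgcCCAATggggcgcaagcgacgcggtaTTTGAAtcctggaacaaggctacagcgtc
CDC20, the activator of the anaphase-promoting complex, was at 79.4, 59.9 and 63.6 CPM in T0, 11.8, 10.9 and 14.1 CPM in PBS and 204, 208 and 238 CPM in EGF. The E2F letters were found in 20 of the 45 replication promoters that RefSeq's table lists for the 52 genes (44.4%), in 10 of the 53 mitosis promoters (18.9%) and in 7.95% of all 27305 promoters of this length. The CHR letters were found in 27 mitosis promoters (50.9%) and in 0 replication promoters, beside 13.6% of all. CCAAT was found in 73.6% of mitosis and 60.0% of replication promoters, beside 33.0% of all, and CHR together with CCAAT in 22 mitosis promoters (41.5%), beside 4.85% of all. CHR and CCAAT matches do not overlap in the 3 promoters shown, the E2F letters TTGGCGC after an A hold a CCAAT match on the other strand, and a match describes the sequence only.

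Genes that supply nucleotides and build ribosomes were also higher, where 31.6% of all rows were higher. Of 26 tested nucleotide synthesis genes 23 were higher, 1 lower and 2 not called, with a median log2 fold change of 0.94. RRM2, the regulated subunit of ribonucleotide reductase, was at 54.4, 45.4 and 55.3 CPM in T0, 9.39, 6.22 and 9.05 CPM in PBS and 289, 301 and 352 CPM in EGF (log2 fold change over T0 2.60, SE 0.21, adjusted p = 1.2e-09). TYMS, thymidylate synthase, rose by 1.59 (SE 0.17), and PFAS, an enzyme of purine synthesis, by 1.54 (SE 0.12). The member that fell, IMPDH2, an enzyme of guanine nucleotide synthesis, went from 336, 345 and 351 CPM to 235, 244 and 244 CPM, while its relative IMPDH1 rose by 0.94. Of 40 tested ribosome biogenesis genes 38 were higher, 1 lower and 1 not called, with a median of 0.90, and PBS left this list near T0, with a median of -0.05, 1 member higher and 7 lower. LYAR, a nucleolar protein, rose from 15.3, 13.2 and 17 CPM to 64.9, 67.8 and 80.2 CPM, RRS1 by 1.50 and UTP20, a component of the small subunit processome, by 1.36. NCL, which encodes the abundant nucleolar protein nucleolin, went from 619, 577 and 657 CPM to 1095, 1172 and 1265 CPM.

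FOXO targets and other starvation-responsive genes fell: 26 of 33 tested were lower with EGF than at T0, beside 34.9% of all rows, 19 were at least 2-fold lower, 2 were higher and 5 were not called. Their median log2 fold change was -1.29, whereas PBS against T0 had a median of 0.33, with 16 higher and 0 lower. FBXO32, the ubiquitin ligase component atrogin-1, was at 212, 240 and 173 CPM in T0, 262, 273 and 268 CPM in PBS and 7.38, 8.29 and 6.33 CPM in EGF. The EGF libraries lay far below every T0 and PBS library (log2 fold change over T0 -4.82, SE 0.32, adjusted p = 9.6e-11). PDK4 (chr7:95583499-95596516, minus strand), the kinase that limits pyruvate oxidation, fell from 473, 373 and 303 CPM to 19.6, 23.1 and 20.9 CPM (log2 fold change -4.17, SE 0.19). PIK3IP1, a membrane protein that inhibits PI3K, fell from 28.1, 23.7 and 14.2 CPM to 4.1, 3.76 and 1.83 CPM. TXNIP, which restrains glucose uptake, was at 1199, 710 and 615 CPM in T0 and 267, 265 and 227 CPM in EGF, with T0 replicate 1 close to the PBS libraries at 1285, 1301 and 1200 CPM. The genes of the FOXO factors fell as well, FOXO1 by 1.63, FOXO3 by 1.11 and FOXO4 by 1.34 on the log2 scale, and FOXO6 was not called (-1.66, adjusted p = 0.2). BCL2L11, the death inducer BIM, fell by 1.94, TNFSF10, the death ligand TRAIL, by 2.42, and the repressor gene BCL6 by 2.29. Their T0 and EGF libraries did not overlap, as in 69.8% of all rows. The members that rose were TRIB1 (1.97) and TRIB2 (0.69), both pseudokinases.

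Lysosome and autophagy genes fell less: 28 of 38 tested were lower, beside 34.9% of all rows, 4 higher and 6 not called, with a median log2 fold change of -0.66. ULK1, the kinase that starts autophagy, fell from 99.9, 106 and 90.6 CPM to 31, 30.2 and 26.1 CPM, and GABARAPL1, an autophagosome protein of the ATG8 family, from 64.5, 60.3 and 57 CPM to 17.2, 18.3 and 16.6 CPM. The log2 fold changes were -1.76 (SE 0.16) and -1.80 (SE 0.09, adjusted p = 1.3e-13). SQSTM1, the cargo receptor p62, fell by 1.28 and CTSD, the protease cathepsin D, by 1.38. GPNMB, a lysosomal membrane glycoprotein, was at 26.7, 21.7 and 14.2 CPM in T0, 94.8, 94.5 and 79.5 CPM in PBS and 3.81, 4.21 and 3.06 CPM in EGF, so it was higher than T0 in PBS and lower than T0 in EGF. GLA (alpha-galactosidase), TFE3 and CTSL (cathepsin L) were among the members that rose, with log2 fold changes between 0.13 and 0.56.

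**Figure D4:**
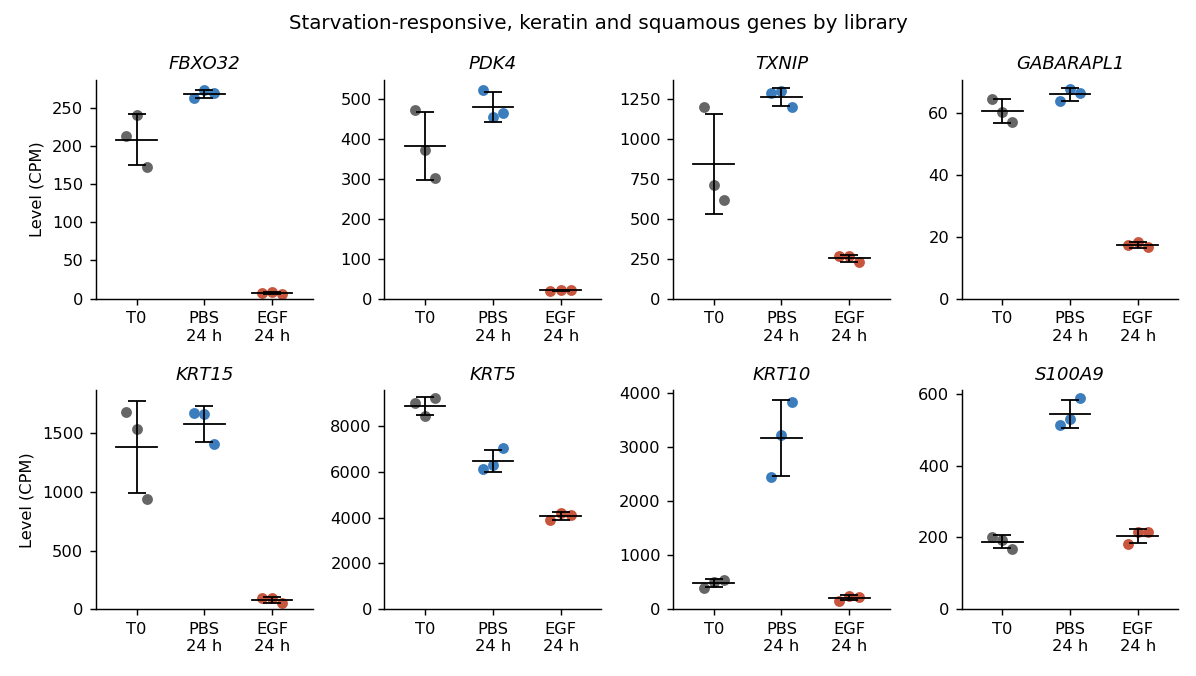
Level (CPM) of 4 starvation-responsive genes, 2 basal keratins and 2 squamous genes in each library of T0, PBS at 24 h and EGF at 24 h, with the mean and SD of 3 libraries as bars. FBXO32, PDK4, TXNIP, GABARAPL1, KRT15 and KRT5 are lower in every EGF library than at T0, while KRT10 and S100A9 are highest in PBS and S100A9 overlaps between EGF and T0.

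Cholesterol and fatty acid synthesis genes were higher by modest amounts: 24 of 31 tested rose, beside 31.6% of all rows, 2 fell and 5 were not called. Their median log2 fold change was 0.46, and 4 were at least 2-fold higher. HMGCS1, the synthase that precedes the rate-limiting step of the mevalonate pathway, went from 99.8, 97.3 and 130 CPM to 242, 260 and 232 CPM. Its log2 fold change was 1.17 (SE 0.17), and that of IDI1, isopentenyl diphosphate isomerase, was 1.07 (SE 0.11). PBS lay below T0, with 21 members lower and 1 higher. The members lower in EGF than at T0 were SREBF2, which encodes the regulator of this pathway (-0.40), and ACSS2 (-0.26), an acetyl-CoA synthetase. For both, PBS and EGF overlapped, and 0 members of the list were lower in EGF than in PBS. SREBF2 was at 254, 271 and 290 CPM in PBS and 255, 270 and 259 CPM in EGF. Glycolysis genes were mixed, with 15 of 25 tested higher, 7 lower and 3 not called, a median of 0.31, and 0 members at least 2-fold higher. Over all rows 31.6% were higher and 34.9% lower. PFKP, a phosphofructokinase, rose from 180, 182 and 200 CPM to 360, 362 and 362 CPM and LDHA, lactate dehydrogenase, by 0.58. The glucose transporter gene SLC2A1 moved the other way, from 306, 285 and 279 CPM in T0 and 231, 228 and 254 CPM in PBS to 83.9, 93 and 90.1 CPM in EGF (log2 fold change -1.70, SE 0.06, adjusted p = 6.2e-16). SLC2A3, another glucose transporter, had a log2 fold change of 0.88 (adjusted p = 0.013) that rested on single T0 libraries: it was 1.47 without T0 replicate 3, 0.59 (adjusted p = 0.0907) without T0 replicate 1 and 0.70 (adjusted p = 0.0752) without T0 replicate 2.

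Among matrix, adhesion and pericellular proteolysis genes 29 of 40 tested were higher with EGF than at T0, beside 31.6% of all rows, 7 lower and 4 not called. Their median log2 fold change was 0.73 (also 0.73 with MMP3, which had 0 counts in T0, at its bound). THBS1 (chr15:39581079-39599466, plus strand), the matricellular protein thrombospondin-1, was at 47, 57.6 and 75.2 CPM in T0, 24.2, 22 and 28.9 CPM in PBS and 1009, 1017 and 1054 CPM in EGF. CCN1 and CCN2, matricellular proteins often read as YAP targets, rose by 3.18 (SE 0.12) and 3.59 (SE 0.13). LAMB3, a laminin chain of the epithelial basement membrane, rose from 669, 648 and 666 CPM to 2038, 1830 and 1639 CPM, and the laminin chain gene LAMA3 from 762, 712 and 742 CPM to 2120, 2079 and 1908 CPM, with log2 fold changes of 1.47 and 1.46. ITGA3, the alpha chain of a laminin receptor, went from 456, 425 and 463 CPM to 1120, 1121 and 1094 CPM. MMP1, an interstitial collagenase, had 2 counts over T0 and 0 over PBS and stood at 3.81, 2.64 and 3.35 CPM in EGF. MMP3 had 12 counts over the EGF libraries. The members that fell included the protease inhibitor gene TIMP3, from 873, 715 and 636 CPM to 313, 343 and 328 CPM, and the matrix gene TGFBI (-0.88, SE 0.09).

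For most late squamous differentiation genes PBS stood above both T0 and EGF. Against T0, 16 of 35 tested were lower, 1 higher and 18 not called, with a median log2 fold change of -0.66. Over all rows 34.9% were lower and 31.6% higher, so the number lower was not far from the share over all rows. In PBS 26 of them were higher than T0 and 0 lower, with a median of 1.00, beside 15.1% and 17.8% of all rows. EGF against PBS gave 32 lower and 0 higher, with a median of -1.69, beside 37.0% and 33.8% of all rows. KRT10, a suprabasal keratin, was at 402, 508 and 542 CPM in T0, 2449, 3213 and 3833 CPM in PBS and 161, 254 and 222 CPM in EGF. KRT1, its partner, was at 5.75, 4.56 and 4.04 CPM in T0, 80.9, 85.2 and 110 CPM in PBS and 1.74, 3.74 and 3.59 CPM in EGF. EGF was below T0 in every library for both, but KRT1 was not called (log2 fold change -0.66, SE 0.40, adjusted p = 0.15). S100A9, a calcium-binding alarmin, overlapped between EGF and T0 (0.12, SE 0.16, adjusted p = 0.52) and was higher in PBS (1.54, SE 0.16). Below T0 were FLG, filaggrin, from 11.4, 11.1 and 11.6 CPM to 1.6, 1.64 and 1.54 CPM, and CALML3, a calmodulin-like protein of epithelia, from 12.4, 12.9 and 10.2 CPM to 1.49, 1.38 and 0.904 CPM. DSC1, a desmosomal cadherin, fell by 2.78 (SE 0.59) from levels under 1 CPM. The member that rose, LCE3D, stood at 0.447, 0.264 and 0.42 CPM in T0, 1.4, 2 and 3.69 CPM in PBS and 0.691, 1.48 and 1.54 CPM in EGF.

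Of 21 tested epithelial markers 15 were lower with EGF than at T0, beside 34.9% of all rows, 4 higher and 2 not called, with a median log2 fold change of -0.81. PBS against T0 had a median of -0.01, with 3 higher and 7 lower, beside 15.1% and 17.8% of all rows. KRT15 (chr17:41513745-41522529, minus strand), a keratin of basal and progenitor cells, was at 1683, 1531 and 941 CPM in T0, 1667, 1663 and 1405 CPM in PBS and 100, 93.1 and 55.2 CPM in EGF. Within both T0 and EGF, replicate 3 was the lowest, and the groups did not overlap (log2 fold change -4.06, SE 0.37, adjusted p = 7.7e-09). KRT5, the main basal keratin, fell from 9006, 8441 and 9189 CPM to 3880, 4183 and 4130 CPM, with PBS between at 6117, 6301 and 7027 CPM. KRT14, its partner, fell by 0.82 and the basal factor gene TP63 by 0.67. KRT14 was also low in PBS, at 560, 669 and 751 CPM, which overlapped EGF at 710, 753 and 748 CPM. TP63 stood at 121, 112 and 109 CPM in PBS and 88, 85.5 and 86.5 CPM in EGF. KRT16, a keratin of activated keratinocytes, fell by 1.34, and the simple keratin gene KRT18 rose by 0.92 while its partner KRT8 fell by 1.30. KRT19, under 1 CPM in every T0 and EGF library, fell by 3.10, and by 4.51 without EGF replicate 2. The adhesion genes CDH1 and EPCAM fell by 0.55 and 0.42 against T0, but differed in PBS. CDH1 in PBS, at 510, 532 and 503 CPM, overlapped T0. EPCAM in PBS, at 10.4, 10.4 and 8.02 CPM, was below every EGF library, at 11.8, 12 and 12.9 CPM. Among markers of other cell types, KDR, the VEGF receptor 2, fell from 16.5, 16.1 and 15.6 CPM to 0.736, 0.999 and 0.88 CPM, DCN, decorin, from 76.5, 84.9 and 76.4 CPM to 9.67, 13.3 and 10.9 CPM, and CD14, a co-receptor for lipopolysaccharide, from 20.1, 31.1 and 29.9 CPM to 5.91, 7.37 and 6.38 CPM. POSTN, periostin, rose from 0.0639, 0.0565 and 0.0466 CPM to 2.74, 2.46 and 1.83 CPM, and FAP, a fibroblast surface protease, from 12.4, 11.5 and 10.9 CPM to 30.1, 29.8 and 22.4 CPM. The fibroblast sum was thus mostly DCN in T0.

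Interferon-stimulated genes and p53 targets were mostly lower, where 34.9% of all rows were lower and 31.6% higher. Of 30 tested interferon-stimulated genes 24 were lower, 2 higher and 4 not called, with a median log2 fold change of -0.81, beside a PBS median of -0.01 with 3 higher and 6 lower. RSAD2, the antiviral protein viperin, fell from 3.92, 4.63 and 2.64 CPM to 0.268, 0.419 and 0.269 CPM, and IFIT1 and IFIT2 fell by 2.55 (SE 0.21) and 2.33 (SE 0.24). STAT2 and IRF9, partners in the interferon-activated transcription complex, fell by 1.13 and 1.04, while OAS3, an oligoadenylate synthetase, rose by 0.41. Of 24 tested p53 targets 17 were lower, 3 higher and 4 not called, with a median of -0.56, beside a PBS median of 0.02. GDF15, a stress cytokine, fell from 18.2, 22.1 and 15.9 CPM to 4.32, 4.16 and 3.01 CPM, TP53INP1 fell from 49, 44.4 and 33.9 CPM to 11.7, 11.4 and 8.82 CPM and MDM2, the ubiquitin ligase for p53, by 0.24 (SE 0.08). PLK3 rose from 6.2, 8.72 and 8.3 CPM to 26.2, 22.4 and 20.6 CPM, AEN, a nuclease, by 1.36 and the death receptor gene FAS by 0.53. CDKN1A, SESN1, ERBB3, RBL2 and CCND1 each stand on more than 1 list here, so the counts of those lists are not independent.

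**Figure D5:**
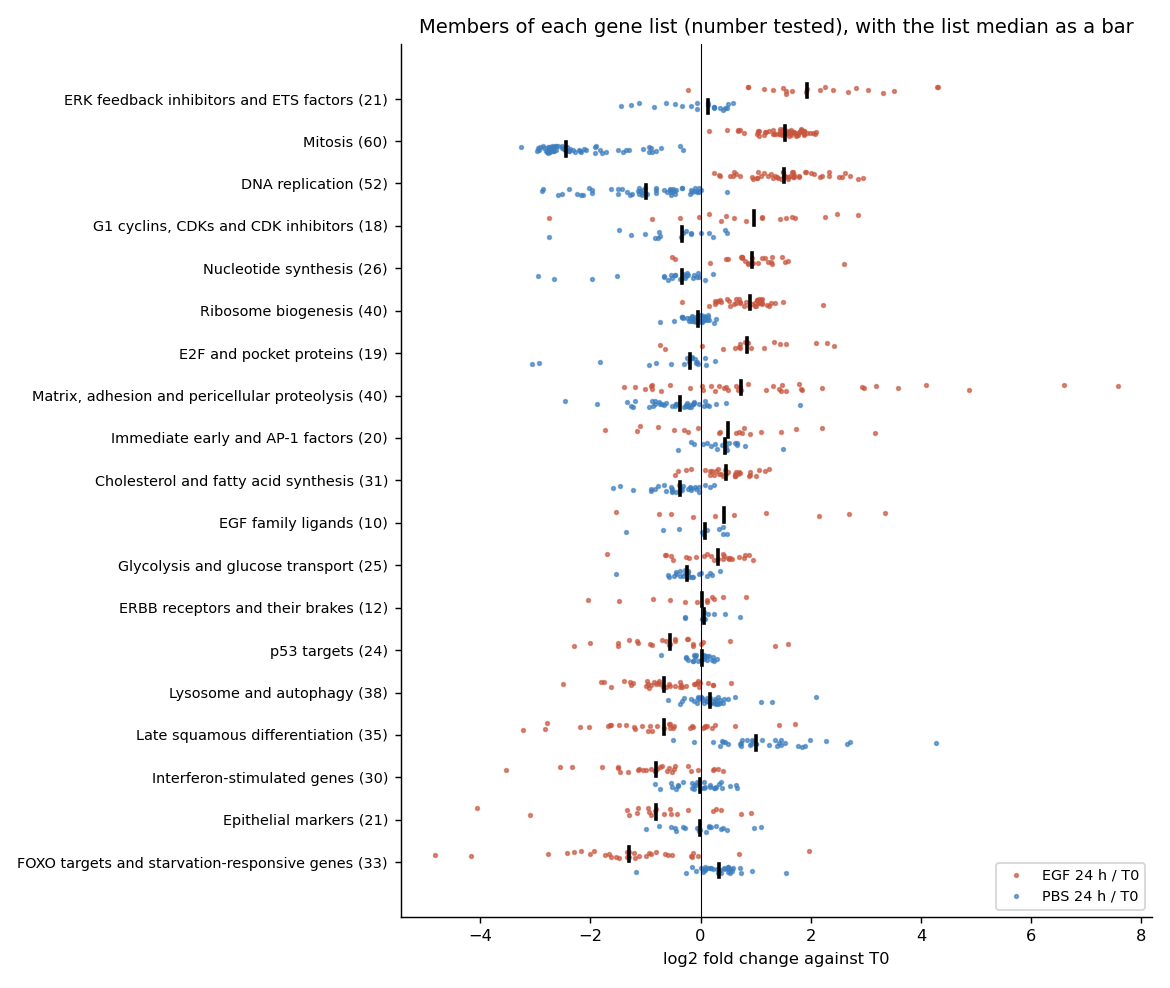
Each point is a tested member of a gene list (number tested in brackets), placed by its log2 fold change against T0, in red for EGF at 24 h and in blue for PBS at 24 h, with the list median as a black bar. Both contrasts share the T0 libraries. The EGF medians run from 1.93 for the ERK feedback list to -1.29 for FOXO targets, and the PBS median is lowest for mitosis, at -2.45, and highest for late squamous differentiation, at 1.00.

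OSM, the other single ligand used here, gave cells that differed from EGF cells in 9040 rows (54.4%, with 27.6% higher and 26.8% lower in EGF). EGF cells had more of the replication transcripts (51 of 52 higher than with OSM, median log2 fold change 0.83), of the mitotic ones (49 of 60 higher, 1 lower, median 0.60) and of the ERK feedback list (18 of 21 higher, 2 lower, median 1.44). The summed levels of these lists were also higher in every OSM library than in every T0 and PBS library, so such rises were not particular to EGF. Replication sums were 1955, 1847 and 2427 CPM with OSM and 1331, 1211 and 1345 CPM in T0. Mitosis sums were 4294, 4019 and 5280 CPM against 2866, 2250 and 2421 CPM. ERK feedback sums were 864, 815 and 986 CPM against 673, 734 and 767 CPM. OSM against T0 was not tested. CCND1 was at 37.6, 32.8 and 50.9 CPM in the OSM libraries, 2.49 log2 units below EGF (SE 0.14, adjusted p = 1.9e-12). DUSP6 and SPRY4 were higher in EGF than in OSM by 0.53 (SE 0.16) and 1.93 (SE 0.18). With OSM, DUSP6 stood at 68.7, 49.8 and 81.1 CPM and SPRY4 at 18.9, 12.6 and 26 CPM, above their T0 libraries. FOXO targets were lower in EGF than in OSM in 28 of 33 and higher in 1, with a median of -0.87, and FBXO32 stood at 110, 133 and 48.3 CPM with OSM. For EGR1 and EGFR the test did not separate EGF from OSM (0.06, SE 0.16, adjusted p = 0.79, and 0.00, SE 0.05, adjusted p = 0.98). GNAO1, low in EGF, was not separated from OSM either (-0.20, SE 0.25, adjusted p = 0.53), whereas IP6K3 was at 17.5, 23.5 and 8.4 CPM with OSM, above its T0 libraries at 7.67, 7.29 and 5.32 CPM.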

How the data were processed

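Polyadenylated RNA of 27 MCF10A libraries was measured with a stranded kit, per the labels' protocols. The deposited values are whole numbers in 40487 rows, treated as estimated counts: the submitters' processing notes name kallisto 0.46.2, Trim Galore 0.4.3 and GRCh38.p5, without roles, and the authors' rounding is not given in the sources used here. Rows of 1 symbol were tested as deposited, and lists used the row with the highest mean. In R 4.3.3, edgeR 4.0.16 (filterByExpr, trimmed mean of M-values, glmQLFit over 9 groups with 18 residual degrees of freedom, prior count 0.125) tested each contrast on 16611 rows with Benjamini-Hochberg adjustment, and the code was tested on simulated data. The biological coefficient of variation was 10.1%. Alternatives were other scaling (DESeq2 1.42.0, upper quartile), filters, library sets, summed rows and a replicate block. Members and the 22 gene lists (592 entries) were chosen with earlier results of these data known. Named were the 8 highest and 8 lowest called genes of at least 5 CPM without overlap, the 3 largest called changes of each list, and 17 genes always. Other list members named in the text were chosen after their values were seen. Gene spans are those of GENCODE v44 on GRCh38, exons and introns included. Counting error is a lower limit, since no molecular identifiers are recorded. Some listed genes are counted in their lists but not reported here by name.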

Additional observations from a re-analysis of the deposited data

How the results depend on the processing

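The number of rows called between EGF and T0, 11050, was 10471 with only the 6 libraries, 11206 with upper-quartile scaling (4654 higher and 6552 lower), 10702 without a filter, 10922 with DESeq2, 10821 with rows summed by symbol, and 10303 to 10732 with 1 library of either group left out. EGF against PBS ranged from 11173 to 11947, PBS against T0 from 4383 to 6206 and EGF against OSM from 8235 to 9417. Requiring a 2-fold change left 3443 for EGF against T0, 4486 against PBS, 866 for PBS against T0 and 2127 against OSM. With a replicate block the count for EGF against T0 was 11323. Same-numbered EGF and T0 libraries deviated from their group means with correlations of -0.019, -0.013 and 0.036. For EGF and OSM they were 0.097, 0.105 and 0.118, and there each library correlated best with its own number, a hint from the data and not the design. For PBS and T0 they were 0.089, 0.02 and 0.046, and each PBS library also correlated best with its own number. The numbers were not taken as pairs, since the labels tie them to no shared culture or day and not every pair exceeded 0.1. With the block 9417 rows were called for EGF against OSM and 6206 for PBS against T0, beside 9040 and 5464 without it. In EGF against T0, 0 calls of the named genes turned on the block other than EGFR. EGFR was called with DESeq2 (0.15), with the block (0.12), without EGF replicate 1 (0.18) and without T0 replicate 3 (0.18), but its log2 fold change was 0.04 with upper-quartile scaling. SLC2A3 was not called with only the 6 libraries (0.90, adjusted p = 0.0633) or without T0 replicate 1 or 2. For 1 list, the leukocyte markers, upper-quartile scaling changed the number called by more than 1.5 times, to 2. The cause of these changes was not tested. Genes under about 1 CPM rest on few counts, and the depth limits how far their fold changes can be read.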

Other observations

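Of the listed genes under the filter, CDKN2A and CDKN2B, inhibitors of CDK4 and CDK6, had 0 counts in T0, PBS, EGF and OSM, which allows up to 0.023 CPM in T0 and 0.0239 CPM in EGF (3 counts over the unscaled total of the group). KDR, listed as an endothelial marker, was at 16.5, 16.1 and 15.6 CPM in the T0 libraries, 28.6, 31.2 and 30.7 CPM in PBS and 0.736, 0.999 and 0.88 CPM in EGF. VWF, another endothelial marker, also fell against T0 (log2 fold change -2.59, SE 0.41), with 197 counts over T0 and 31 over EGF. TEK rose (2.54, SE 0.59) from very few counts, 4 over T0 and 24 over EGF, and CDH5 and CLDN5 were under the filter.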
